A study of Mus musculus with 23 samples.

Results

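Expression in the colon of untreated Fn14 knockout mice was compared with that of untreated wild-type mice. The comparison used 10 of the 23 arrays of the study, 5 labelled as knockout without TNBS and 5 labelled as wild type without TNBS, which the sample titles set apart from arrays of TNBS-treated mice. It covered 18194 genes, each read by the probe set that names that gene alone and had the highest mean over all 23 arrays. Fn14 is encoded by Tnfrsf12a. All mice were BALB/c, the tissue was labelled as colon in every group, and total RNA was hybridised to 1 oligonucleotide array per sample. The other 13 arrays, 6 of wild-type and 7 of knockout colon, came from mice given 0.2% TNBS in ethanol and buffer rectally over 6 weeks, with tissue taken 3 days after the last injection. TNBS is a hapten used to induce chronic colitis. The labels give no allele for the knockout, no age or sex, and no vehicle for the untreated mice. The labels number the samples but do not say that they are separate mice, so a p-value here rests on the spread among the samples, which may be technical.

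TWEAK, a cytokine of the TNF superfamily, binds Fn14, which recruits TRAF adaptors and activates classical and alternative NF-kappaB signalling. In the intestine the pathway is known from studies of epithelial injury and inflammation. Interferon-stimulated genes, which carried the largest decreases below, encode antiviral effectors and sensors that type I and type III interferons induce.

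Values are log2 expression as deposited, and a difference is knockout minus wild type on that scale with its standard error (SE). Pairs of arrays of the same untreated group correlated at r = 0.995 to 0.9979 over all genes, and pairs across the groups at 0.9911 to 0.9957. The absorptive colonocyte list averaged 11.64 to 12.03 and the smooth muscle list 11.77 to 12.03 on the 10 arrays. These means do not tell colon from other gut segments, since genes of these lists are not limited to colon. Alpi, for example, is also on the proximal small intestine list. Y-linked genes (Eif2s3y, Kdm5d and Uty) averaged the minimum of the deposited values, 2.17, in both groups, and Xist at 12.28 ± 0.02 (SD, n = 5) in wild type and 12.06 ± 0.08 (n = 5) in knockout. The share of probe sets at that lowest value was higher in knockout (28.28% ± 0.161) than in wild-type arrays (27.4% ± 0.341; exact permutation p = 0.00794, the smallest that 5 against 5 arrays can give, and 0.0318 after Benjamini-Hochberg adjustment over 4 quality measures). The signal ratios of the Gapdh and beta-actin control probe sets, which track RNA integrity, did not pass that test (exact permutation p = 0.317 and 0.365).

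Means of gene lists named for other tissues were raised on some arrays. Where these transcripts came from was not tested. The proximal small intestine list averaged 8.02 to 8.60 on knockout replicates 1 to 4, 8.61 on wild-type replicate 5 and 7.46 on wild-type replicate 4, against 6.59 to 6.76 on the other 4 arrays. Apoa1, which encodes the main apolipoprotein of high-density lipoprotein, followed the same arrays: it read 2.60, 2.30, 2.23, 6.60 and 10.39 in wild type and 9.13, 9.69, 8.36, 8.87 and 3.20 in knockout. The skeletal muscle list was higher on every knockout array than on any wild-type array (5.56 to 7.84 against 3.01 to 4.75). The squamous epithelium list reached 6.71 on knockout replicate 1 and the pancreas list 5.74 on knockout replicate 5. In whole tissue, fewer cells of a type and less RNA per cell cannot be told apart.

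Tnfrsf12a, the targeted gene, was read to check the labels. It stood at 6.64, 5.86, 7.06, 6.53 and 7.16 on the wild-type arrays and at 4.17, 4.10, 4.11, 4.17 and 4.03 on the knockout arrays. All knockout arrays lay below all wild-type arrays, and the difference was -2.54 ± 0.22 (adjusted p = 2.2e-06; limma, Benjamini-Hochberg over all genes). A second probe set of the gene differed by -2.67. The position of these probe sets relative to the deleted sequence was not examined.

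At an adjusted p under 0.05, 879 of 18194 genes (4.83%) differed between the untreated genotypes. Of these, 531 (2.92% of genes tested) were higher and 348 (1.91%) lower in the knockout. The decreases were larger: 76 lower genes and 26 higher genes differed by at least 1, and the median difference was -0.53 among lower and 0.35 among higher genes. Groups did not overlap in 547 of the called genes and in 1012 of all 18194 genes (5.56%). Calls of genes that differed by at least 1 held best when single arrays were left out, with 79 of 102 called in all 10 such analyses, against 354 of the 879. The count of calls moved most without wild-type replicate 1 (238 higher, 220 lower) and without knockout replicate 4 (268 higher, 216 lower). With arrays centred on their medians 41.6% of calls were higher, and with quantile normalization 49.7%, against 60.4% on the deposited scale, so the balance of increases and decreases depended on the scaling.

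**Figure D1:**
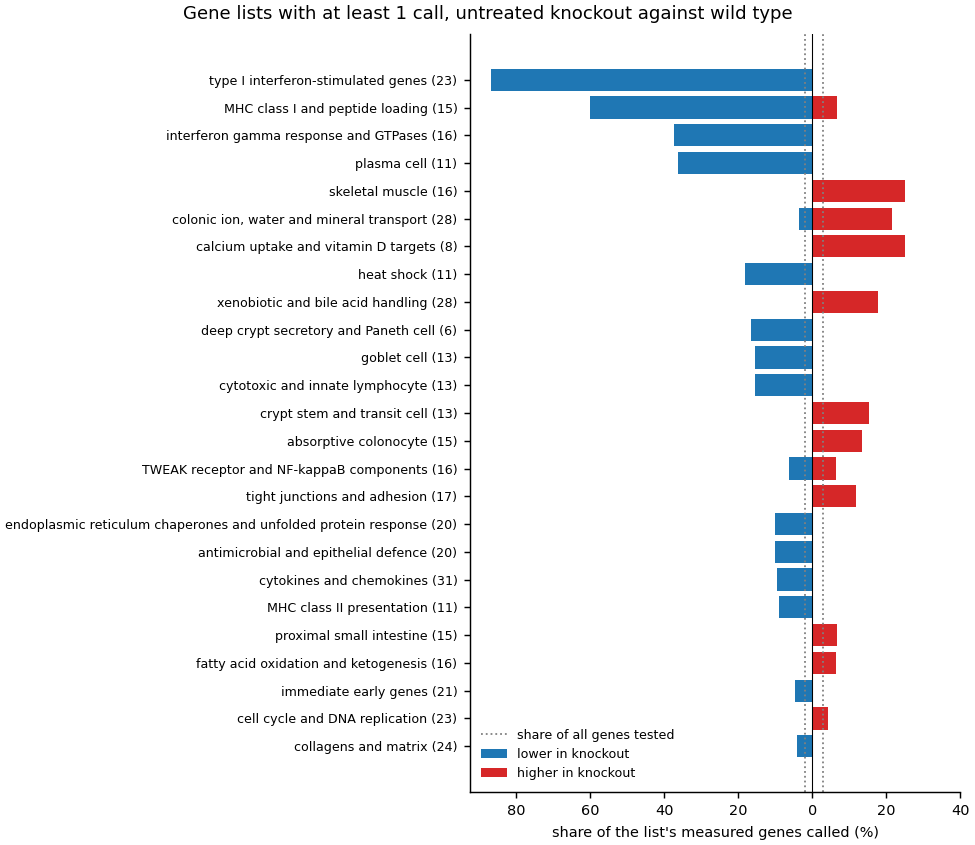
Share of the measured genes of each list called higher (right, red) or lower (left, blue) in the untreated knockout, in percent, for the lists with at least 1 call; the number of measured genes stands in brackets and dotted lines give the shares of all genes tested (1.91% lower, 2.92% higher). The type I interferon list reaches 87.0% lower, and the MHC class I list 9 lower and 1 higher of 15.

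Type I interferon-stimulated genes were lower in the untreated knockout almost throughout. Of 23 measured members of the list, 20 (87.0%) were lower and none higher, 17 without overlap of the groups, against 1.91% of all genes called lower and 2.18% lower without overlap. The median difference over the list was -2.00, against 0 over all genes. All 20 calls were kept when any single untreated array was left out. With the 2 untreated groups fitted alone 11 members were called lower, and with skeletal muscle as a covariate 13 were. The groups alone leave fewer arrays to estimate the spread, and the muscle level did not overlap between the untreated genotypes. The members with a call included enzymes that sense viral RNA (Oas2, Oas3, Oasl2), translation inhibitors (Ifit1, Ifit2, Ifit3), a deubiquitinase-like enzyme that removes ISG15 (Usp18), viperin (Rsad2), tetherin (Bst2), the RNA helicase Dhx58 and the transcription factors Irf7, Irf9 and Stat2.

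The promoters of 4 of these genes are shown because they hold a motif of interferon-responsive promoters that was searched in the bases before the start of each gene. They are RefSeq sequences of GRCm38.p6, 5′ to 3′ on the strand of the gene and ending at the base before its annotated start. Capitals mark GAAA followed by any 2 bases and a further GAAA, or the reverse complement, which has TTTC in place of GAAA. The windows are chr5:120777660-120777779 (minus strand) for Oas3, chr19:34583279-34583528 (plus strand) for Ifit3, chr19:34640769-34640888 (plus strand) for Ifit1 and chr12:26456453-26456572 (minus strand) for Rsad2.
Oas3: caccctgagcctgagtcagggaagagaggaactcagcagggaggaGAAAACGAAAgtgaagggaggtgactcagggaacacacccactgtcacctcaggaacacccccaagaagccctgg
Ifit3: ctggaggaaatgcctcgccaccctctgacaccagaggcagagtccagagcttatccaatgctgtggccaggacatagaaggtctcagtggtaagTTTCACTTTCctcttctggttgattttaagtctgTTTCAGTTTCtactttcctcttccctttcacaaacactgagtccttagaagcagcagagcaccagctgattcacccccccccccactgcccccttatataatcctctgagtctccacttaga
Ifit1: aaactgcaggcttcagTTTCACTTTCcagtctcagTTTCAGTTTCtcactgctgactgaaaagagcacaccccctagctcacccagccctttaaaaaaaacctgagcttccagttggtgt
Rsad2: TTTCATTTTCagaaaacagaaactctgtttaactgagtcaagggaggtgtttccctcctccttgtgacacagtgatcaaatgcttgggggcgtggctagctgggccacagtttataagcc
The motif nearest the start lay 65 bases before it in Oas3, 112 in Ifit3, 75 in Ifit1 and 110 in Rsad2. Ifit3 and Ifit1 held 2 matches each, which do not overlap. On either strand of the 250 bases before the start, the motif was present in 7 of 16 members of the list with a promoter in the table (43.8%), against 453 of 14453 measured genes (3.13%) and 978 of 32851 windows in all (2.98%). Among called genes with a promoter it was present in 30 of 272 that were lower (11%), 16 of 56 that were lower by at least 1 (28.6%) and 5 of 414 that were higher (1.21%). Of the lower genes outside the interferon list, 24 of 258 (9.3%) held it. Oas1a, which did not pass the test, held it as well, and Oasl2 and Irf7 did not, so a match and a call did not go together gene by gene. A match is a description of these letters and not a site of binding.

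Oas2, which makes the 2′-5′ oligoadenylates that activate RNase L, had the most negative difference of the called genes without overlap on the deposited scale. It read 7.15, 5.23, 9.01, 8.58 and 8.88 on the wild-type arrays and 2.75, 3.01, 3.95, 4.18 and 3.77 on the knockout arrays, a difference of -4.24 ± 0.53 (adjusted p = 0.000187). All its untreated knockout values were dim, that is below 5, and with values below 5 raised to 5 the difference was -2.77 (adjusted p = 0.00422), smaller than that of Usp18 (-3.72). The wild-type arrays spread over a wide range with replicate 2 lowest, yet all stood above the knockout arrays. Usp18 read 9.85, 8.78, 11.69, 10.95 and 11.62 in wild type and 6.79, 6.96, 6.67, 7.16 and 6.70 in knockout (-3.72 ± 0.47, adjusted p = 0.000187). Oasl2, which had the smallest p of the list, read 9.87, 9.01, 11.17, 10.58 and 10.69 against 7.08, 6.83, 7.52, 7.74 and 7.13 (-3.00 ± 0.30, adjusted p = 1.56e-05). Both had the same order of wild-type arrays at the low end, with replicate 2 lowest and replicate 1 next. Ifit3 differed by -3.23 ± 0.45, Ifit2 by -3.13 ± 0.52, Oas3 by -3.39 ± 0.49, Ifit1 by -2.40 ± 0.34, Rsad2 by -2.34 ± 0.37, Dhx58 by -2.28 ± 0.34 and Rtp4, a chaperone of receptors, by -2.14 ± 0.26. None of these groups overlapped.

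The mean of the list showed how the arrays spread. It was 9.03, 8.30, 10.40, 9.75 and 10.23 on the wild-type arrays and 7.36, 7.30, 7.58, 7.88 and 7.31 on the knockout arrays. The wild-type arrays thus varied more (SD 0.87) than the knockout arrays (SD 0.246). Without wild-type replicate 2, the lowest of its group, 21 members were called, the added gene being Mx2.

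Genes outside the list with known interferon induction were among the 20 largest decreases too. Ifi44l differed by -3.75 ± 0.55, Herc6, a ubiquitin ligase, by -2.86 ± 0.36, Trim30d and Trim30a by -2.86 ± 0.56 and -2.50 ± 0.29, the helicase-like Ddx60 by -2.48 ± 0.35 and Phf11d by -2.19 ± 0.32. Of the 20 genes with the largest decreases and no overlap, 10 were on the type I interferon list. Trim30d did not pass once values below 5 were raised to 5 (adjusted p = 0.0553), where its knockout values of at most 3.93 all lie at the raised limit.

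Members of the list without a call are Isg20, Oas1a and Mx2. Isg20, an exonuclease, read 8.91, 8.99, 9.22, 8.95 and 9.08 in wild type and 9.08, 9.10, 8.63, 8.40 and 8.71 in knockout (-0.24 ± 0.12, adjusted p = 0.296). Oas1a differed by -0.44 ± 0.25 (adjusted p = 0.379), and in both genes the groups overlapped. Mx2 stood at the lowest value on every knockout array and reached 5.04 and 4.62 on wild-type replicates 3 and 5 only (adjusted p = 0.109).

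**Figure D2:**
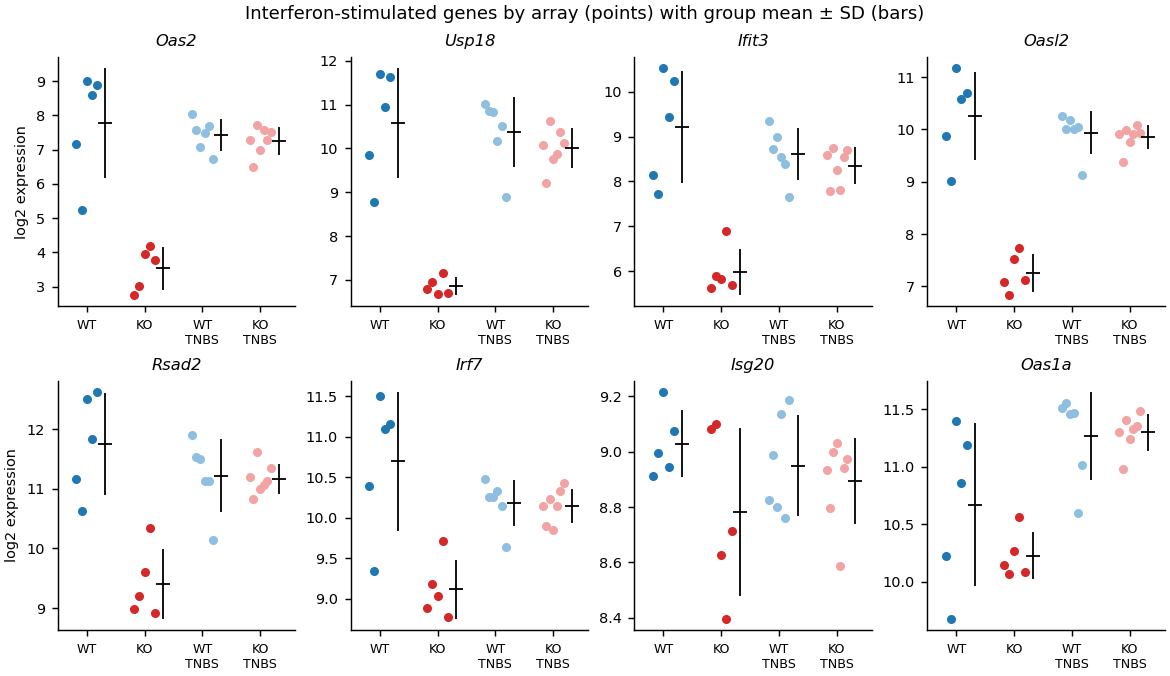
Log2 expression (vertical axes) of 8 genes of the type I interferon list on each array (points) in untreated wild type (WT), untreated knockout (KO) and both genotypes with TNBS, with group mean ± SD (bars). In Oas2, Usp18, Ifit3, Oasl2 and Rsad2 the untreated knockout arrays lie below all other untreated arrays, while Isg20 and Oas1a overlap.

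Genes that interferon gamma induces followed in part. Of 16 measured members of that list, 6 (37.5%) were lower and none higher, against 1.91% of all genes called lower. All 6 calls were kept when single arrays were left out. Gbp3, a guanylate-binding protein, read 8.50, 7.92, 9.93, 9.25 and 9.66 in wild type and 6.96, 6.87, 7.71, 7.65 and 7.02 in knockout, without overlap (-1.81 ± 0.32, adjusted p = 0.00312). Cxcl9, a chemokine for activated T cells, differed by -1.75 ± 0.36 (adjusted p = 0.00957) and Gbp7 by -0.95 ± 0.21. Igtp (-1.83 ± 0.40), Irgm2 (-1.40) and Irgm1 (-1.12), GTPases that act on vacuoles of intracellular pathogens, were also lower, with overlapping groups. Irf1 and Irf8, transcription factors of this response, differed by 0.07 and -0.06 and did not pass, and neither did Cxcl10 (-0.89) or Iigp1 (-1.24). The difference of Cxcl9 fell short when its probe sets were averaged (-0.90, adjusted p = 0.0528).

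The genotypes were compared in the TNBS-treated mice on 13 separate arrays, where no member of the type I interferon list had a call. Of all genes, 1902 (10.5%) were called there, 679 higher (3.73%) and 1223 lower (6.72%), and the median difference of the interferon list was -0.13. Oas2 had its lowest, median and highest values at 6.72, 7.53 and 8.05 in TNBS-treated wild type and at 6.49, 7.28 and 7.71 in TNBS-treated knockout. Usp18 had 8.88, 10.67 and 11.01 against 9.21, 10.08 and 10.62. The TNBS-treated genotypes overlapped, and all TNBS-treated knockout arrays lay above the untreated knockout arrays in both genes. A test of the difference between the genotype effects without and with TNBS passed for 15 of the 23 members of the list, against 363 of all genes (2%). It gave -4.06 for Oas2 (adjusted p = 0.00762), -2.92 for Oasl2 (adjusted p = 0.00154) and -2.11 for Rtp4 (adjusted p = 0.00505). TNBS arrays differ from the untreated ones in treatment and possibly in handling, and these cannot be told apart.

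Over all 879 genes called without TNBS, 646 had the same direction with TNBS, against 59.1% of all genes tested. The share was 81.6% for lower and 68.2% for higher genes. Both comparisons called 169 genes in the same direction, which is 19.2% of the untreated calls and 8.89% of the TNBS calls. Another 23 were called in opposite directions. The difference of the genotype effects passed for 158 of the 879 genes (18%), a set that includes those below.

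**Figure D3:**
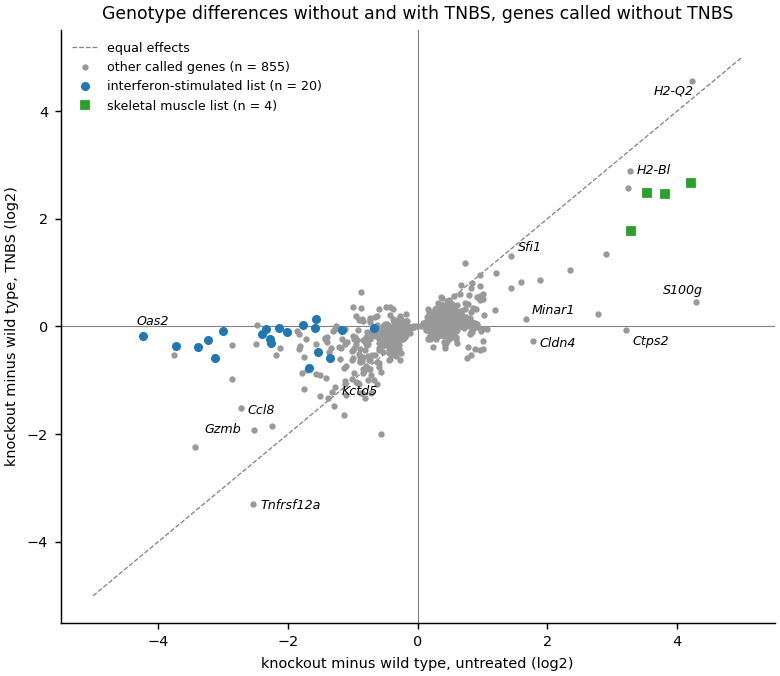
Genotype difference (knockout minus wild type, log2) without TNBS (horizontal) and with TNBS (vertical) for the 879 genes called without TNBS, with members of the type I interferon list (blue circles, 20) and the skeletal muscle list (green squares, 4). The interferon genes lie near 0 on the vertical axis, Tnfrsf12a is low on both axes and H2-Q2 high on both.

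In 141 genes (0.775%) the untreated knockout lay apart from all other 18 arrays, and 68 of the 103 called ones were low. They held Oas2, Usp18, Ifit1, Ifit2, Ifit3 and other interferon genes, but not Rsad2 or Irf7, as well as granzymes and the chemokine Ccl8. Gzmb, a protease of cytotoxic lymphocyte granules, read 5.28, 5.01, 5.87, 5.46 and 5.45 in wild type and 2.70, 2.62, 3.22, 3.67 and 2.22 in knockout (-2.53 ± 0.29, adjusted p = 6.55e-05). Gzma read 8.24, 7.43, 8.76, 8.38 and 8.40 against 6.59, 6.23, 6.44, 5.61 and 5.10 (-2.25 ± 0.34, adjusted p = 0.000943). The groups did not overlap in either granzyme. Gzmb was dim and did not pass once values below 5 were raised to 5 (-0.41, adjusted p = 0.393), while Gzma did (-2.25). With TNBS they were lower in the knockout as well (-1.93 ± 0.25 and -1.85 ± 0.30, adjusted p = 0.0001 and 0.000545). Without TNBS they were the only called members among 13 measured genes of cytotoxic and innate lymphocytes (15.4%, against 4.83% of all genes). Of the 13, 10 averaged below 5 on the untreated arrays. Prf1, the pore-forming partner of granzymes, differed by 0.09 and Nkg7 by -0.52, and neither passed.

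Of 31 measured chemokines and cytokines, 3 were lower in the knockout (9.68%) and none higher, against 1.91% of all genes called lower. Of the 31, 21 averaged below 5 on the untreated arrays. Ccl8, a monocyte chemoattractant, read 8.03, 8.26, 8.44, 9.05 and 9.14 in wild type and 6.41, 5.51, 6.54, 5.36 and 5.51 in knockout, without overlap (-2.72 ± 0.44, adjusted p = 0.00194). Ccl5 (-1.39 ± 0.35) and Ccl2 (-0.86 ± 0.23) overlapped between the groups. Their calls were lost when any of 6 or 8 arrays was left out (adjusted p up to 0.0728 and 0.0825), while that of Ccl8 was kept. With values below 5 raised to 5, Ccl5 (-0.73) and Ccl2, which is dim on every untreated array, did not pass. The macrophage and monocyte list had no call among 14 measured members (median -0.56), and the T cell and B cell lists had none among 15 and 16. On the untreated arrays 11 of the 15 T cell and 9 of the 16 B cell genes averaged below 5, so a difference could be missed.

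Of 11 measured plasma cell genes, 4 (36.4%) were lower in the knockout and none higher, and 7 did not pass. Of all genes, 1.91% were called lower. Mzb1, a chaperone of antibody secretion, read 8.04, 7.79, 7.74, 7.72 and 8.0 in wild type and 7.23, 7.26, 6.29, 6.02 and 6.47 in knockout (-1.20 ± 0.30, adjusted p = 0.0248). Jchain, which joins IgA and IgM polymers, differed by -0.35 ± 0.08, the B cell coactivator Pou2af1 by -0.88 ± 0.24 and Derl3, of endoplasmic reticulum degradation, by -0.88 ± 0.25. Knockout replicates 3, 4 and 5 were the lowest for Mzb1, Jchain and Pou2af1, and replicates 1 and 2 lay nearer to the wild type. None of the 4 calls held in every analysis without 1 array. Jchain was lost without knockout replicate 4 alone (adjusted p = 0.0571), Mzb1 with any of 4 arrays, Pou2af1 with any of 6 and Derl3 with any of 9. Derl3 was dim and differed by -0.019 with values below 5 raised to 5. Sdc1 and Xbp1, which epithelium expresses as well, differed by 0.03 and 0.04 and did not pass.

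MHC class I genes and the machinery that loads them with peptide had 9 lower and 1 higher of 15 measured members (66.7% called). Of all genes, 4.83% were called. B2m, the light chain of class I molecules, differed by -0.23 ± 0.04 (adjusted p = 0.00374), H2-D1, a classical heavy chain, by -0.23 ± 0.05, the immunoproteasome subunits Psmb9 and Psmb8 by -1.13 ± 0.21 and -0.85 ± 0.20, and the peptide transporter Tap2 by -0.96 ± 0.23. H2-T24, a nonclassical heavy chain, read 8.65, 8.02, 9.14, 8.66 and 9.45 in wild type and 7.36, 7.21, 7.26, 7.20 and 7.77 in knockout, without overlap (-1.43 ± 0.23, adjusted p = 0.00151). Single arrays ended the calls of Tap2 (3 arrays), Psmb8 (wild-type replicate 5, adjusted p = 0.0512) and H2-K1 (4 arrays). H2-K1 was lower by its brightest probe set (-0.24 ± 0.06) and differed by 0.33 and 0.07 in another pair of bright probe sets, so its direction depended on the probe set. H2-D1 differed by -2.75, -2.76 and -2.91 in other bright probe sets, which varied widely (SE 1.54, 1.56 and 1.73) and did not pass. None of its probe sets was higher, but the size of its decrease depended on the probe set. Among 11 measured genes of MHC class II presentation only H2-Ab1 passed (-0.68 ± 0.19), a call that 6 single arrays ended (adjusted p up to 0.111), and Cd74 differed by -0.50 without passing.

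Within the knockout group, genes of the histocompatibility region split the arrays. H2-Q2, a class I gene, read 2.55, 2.49, 2.59, 2.51 and 2.55 in wild type and 2.47, 7.13, 8.78, 8.06 and 7.39 in knockout (4.23 ± 1.01, adjusted p = 0.021). H2-Bl, named here after its values were seen, read 2.86, 2.90, 3.00, 3.14 and 2.55 against 3.14, 6.66, 7.85, 7.15 and 6.04 (3.28 ± 0.70, adjusted p = 0.011). Knockout replicate 1 thus stood at the wild-type level in both genes and the other 4 knockout arrays far above it. TNBS-treated knockout arrays had lowest, median and highest values of 2.47, 7.61 and 8.65 for H2-Q2 and of 3.00, 5.96 and 7.23 for H2-Bl, with TNBS replicate 5 lowest in both. Wild-type arrays with TNBS did not exceed 2.55 and 3.08. Vps52 and Ring1, housekeeping genes of the same region and also named after their values were seen, had knockout replicate 1 lowest of its group at 3.69 and 5.66, against 4.57 to 4.97 and 6.14 to 6.52 on the other knockout arrays. Every untreated value of Vps52 was dim, and its call was lost without any of 9 arrays (limma, adjusted p up to 0.0895). The call of Ring1 was lost without wild-type replicate 1 (adjusted p = 0.052).

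H2-M3, which presents formylated peptides, had another order. It read 8.43, 8.33, 8.27, 8.14 and 8.34 in wild type and 7.99, 7.34, 5.71, 7.29 and 6.76 in knockout (-1.28 ± 0.36, adjusted p = 0.0468). All knockout arrays were lower, replicate 3 by far the most and replicate 1 the least. With TNBS the genotypes also stood apart, at 8.49, 8.74 and 8.96 against 5.68, 7.51 and 7.80 (lowest, median and highest). The call of H2-M3 was lost when any of 9 arrays was left out (adjusted p up to 0.109) and that of H2-Q2 without knockout replicate 3 or 4 (adjusted p up to 0.0586). Probe sets of these related genes can hybridise to transcripts of several members, so a value may not belong to the named gene alone.

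**Figure D4:**
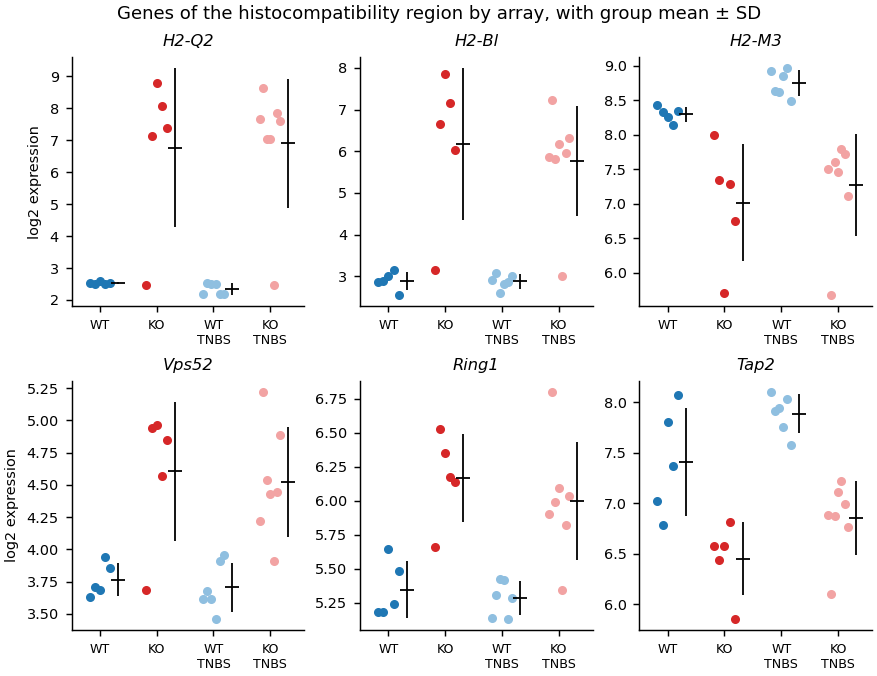
Log2 expression (vertical axes) of 6 genes of the histocompatibility region on each array (points) in the 4 groups, with group mean ± SD (bars). A single knockout array without TNBS and a single one with TNBS lie at the wild-type level for H2-Q2 and H2-Bl, while H2-M3 is lower on all knockout arrays.

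Genes were also grouped by their distance from Tnfrsf12a on chromosome 17, with no test of the shares. Within 20 Mb of it 46 of 512 measured genes (8.98%) had a call, against 819 of 17307 (4.73%) on other chromosomes. The share was 5 of 52 (9.62%) within 1 Mb and 29 of 209 (13.9%) at 10 to 20 Mb, a stretch that holds the histocompatibility genes. Between these distances the shares were near the background, 6 of 138 (4.35%) at 1 to 5 Mb and 6 of 113 (5.31%) at 5 to 10 Mb. In both genotype comparisons, 19 of the 512 genes (3.71%) were called in the same direction, against 0.832% on other chromosomes. Of these 19, 16 lay at 10 to 20 Mb and 2 within 1 Mb, and between these distances the counts were 1 of 138 and 0 of 113.

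Kctd5, an adaptor of cullin ubiquitin ligases that lies within 1 Mb of Tnfrsf12a, read 8.87, 8.65, 8.73, 8.66 and 8.67 in wild type and 7.51, 7.36, 7.62, 7.38 and 7.35 in knockout (-1.27 ± 0.10, adjusted p = 3.67e-07). Hcfc1r1, a regulator of the host cell factor HCFC1 at the same distance, read 11.74, 11.88, 11.94, 11.93 and 11.85 against 12.56, 12.52, 12.53, 12.61 and 12.38 (0.65 ± 0.07, adjusted p = 1.99e-05). Replicates of a group lay within a narrow range in both genes, far from the other group. With TNBS the differences were -1.13 ± 0.09 and 0.61 ± 0.06. Thoc6, of the mRNA export complex, was higher by 0.56 ± 0.11 within the same distance. Farther away, Stub1 (0.27 ± 0.05), Haghl (1.01 ± 0.20), Glo1 (0.29 ± 0.06) and Stk38 (0.30 ± 0.05) were higher at 1 to 10 Mb. At 10 to 20 Mb, Fndc1 (-1.12 ± 0.19) and the complement gene C2 (-1.56 ± 0.25) were lower and the cell cycle gene Tcf19 (0.91 ± 0.16) was higher. With TNBS, Fndc1 (-1.07) and C2 (-0.88) were lower again (limma, adjusted p = 0.000537 and 0.0138). Thoc6 (0.16), Stub1 (0.07), Haghl (-0.27), Glo1 (0.05), Stk38 (0.06) and Tcf19 (0.05) did not pass with TNBS. The difference of Stk38 fell short when its probe sets were averaged (0.13, adjusted p = 0.309).

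Over both treatments, the 12 knockout arrays did not overlap the 11 wild-type arrays in 22 genes (0.121%), 5 of them on chromosome 17 within 20 Mb of Tnfrsf12a or Tnfrsf12a itself. They were Tnfrsf12a, Kctd5, Hcfc1r1, Fndc1 and H2-M3. On other chromosomes, Sfi1, a centrosomal protein, read 7.69, 7.83, 7.67, 8.27 and 7.81 in wild type and 8.98, 9.75, 9.46, 9.29 and 9.01 in knockout (1.45 ± 0.15, adjusted p = 1.57e-05). The pseudogene Pisd-ps3 read 9.77, 10.05, 9.85, 10.25 and 10.23 against 10.83, 11.29, 11.15, 11.08 and 10.86 (1.01 ± 0.10, adjusted p = 1.57e-05). Both kept their groups apart with TNBS, where they differed by 1.30 ± 0.13 and 0.60 ± 0.09. Tor1aip1, of the inner nuclear membrane, was lower by 0.54 ± 0.05 and Pm20d1, a peptidase, higher by 0.61 ± 0.10, both named after their values were seen.

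In 62 genes (0.341%) it was the untreated wild type that lay apart from all other 18 arrays, and 41 of them had a call. Ctps2, an enzyme of CTP synthesis on the X chromosome, read 5.87, 5.87, 5.97, 6.09 and 6.26 in untreated wild type and 9.31, 9.39, 9.18, 9.02 and 9.25 in untreated knockout (3.22 ± 0.08, adjusted p = 3.09e-16, the smallest of all genes). TNBS-treated wild-type arrays read 9.11 to 9.42 (median 9.30) and TNBS-treated knockout arrays 9.14 to 9.35 (median 9.23). The untreated wild-type arrays were thus lower than arrays of the same genotype with TNBS, and the genotypes with TNBS differed by -0.06 ± 0.07. A further pair of probe sets of Ctps2, near the lowest value, was also higher in the untreated knockout (0.63 and 0.54).

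S100g, which encodes the calcium-binding protein calbindin-D9k and lies next to Ctps2 among the measured genes, read 7.14, 8.68, 9.48, 7.87 and 7.80 in untreated wild type and 12.63, 12.52, 12.42, 12.63 and 12.19 in untreated knockout. The difference was 4.29 ± 0.30 (19.5-fold higher, adjusted p = 8.63e-08), the largest of the genes that were higher without overlap. With TNBS both genotypes were high, wild-type arrays reading 11.19 to 12.14 and knockout arrays 11.95 to 12.69. Of the 8 measured genes on either side of Ctps2 only S100g had a call, and the others differed by -0.03 to 0.30. Of these others, Gm15201, Rnf138rt1, Cltrn and Bmx lay at or near the lowest value in both untreated groups. Scml2, Grpr and Car5b averaged below 5 there, so a difference in any of these genes could be missed. G530011O06Rik (2.79 ± 0.38, adjusted p = 0.000453, named after its values were seen) and Acot9, a mitochondrial thioesterase (0.48 ± 0.06, adjusted p = 0.000245), both on the X chromosome, had the same order of groups. G530011O06Rik read at most 3.48 on the untreated wild-type arrays and at least 4.23 on the other 18, and with values below 5 raised to 5 it differed by 0.29 and did not pass (adjusted p = 0.896). The test of the difference between the genotype effects passed for Ctps2 (3.28, adjusted p = 5.35e-14), S100g (3.83, adjusted p = 8.03e-05), Acot9 (0.72, adjusted p = 0.000124) and G530011O06Rik (2.55, adjusted p = 0.0146).

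**Figure D5:**
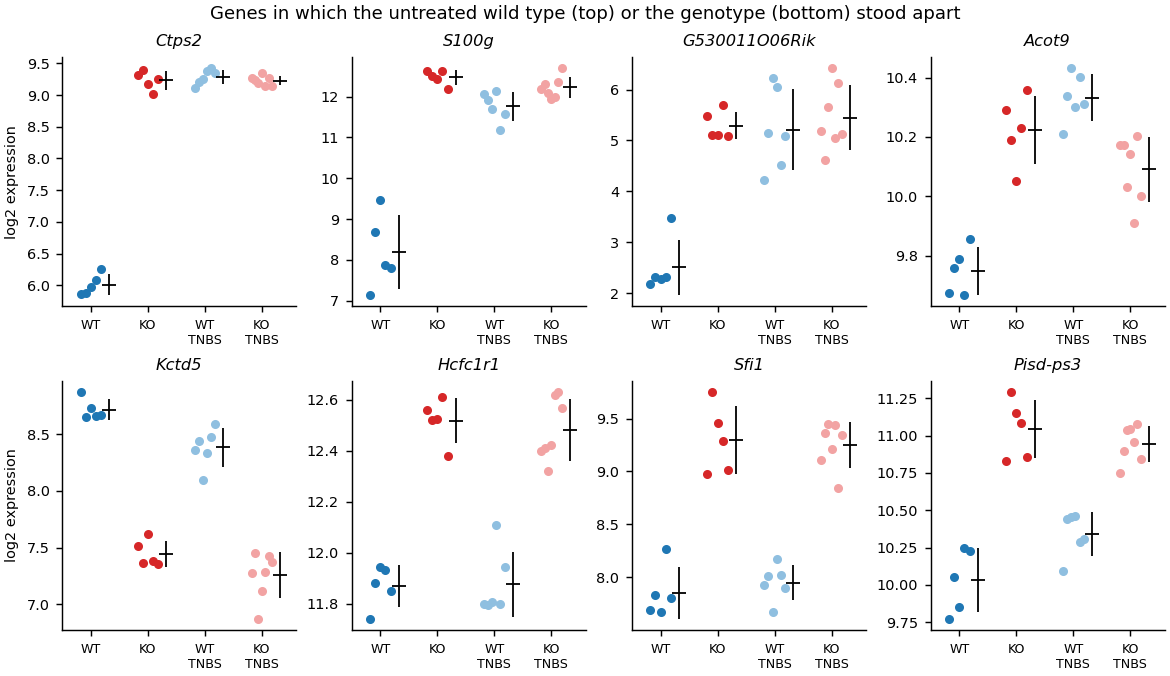
Log2 expression (vertical axes) on each array (points) with group mean ± SD (bars) of 4 X-linked genes in which the untreated wild type lies apart from the other 18 arrays (top) and of 4 genes in which the genotypes do not overlap in either treatment (bottom). Ctps2 lies between 5.87 and 6.26 in untreated wild type and between 9.02 and 9.42 elsewhere.

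Some genes of calcium uptake and colonic transport were also called. Vdr, the vitamin D receptor, read 12.31, 12.31, 12.41, 12.48 and 12.16 in wild type and 12.72, 12.64, 12.71, 12.84 and 12.60 in knockout (0.37 ± 0.08, adjusted p = 0.0117), and with S100g it made 2 higher of 8 measured calcium genes. Of 28 measured genes of ion, water and mineral transport, 6 were higher and 1 lower (25% called), against 4.83% of all genes. The phosphate transporter Slc20a1 (0.59 ± 0.13), the potassium channel Kcnq1 (0.39 ± 0.09), the sodium channel subunit Scnn1a (0.39 ± 0.10), the chloride exchanger Slc26a3 (0.21 ± 0.06) and the carbonic anhydrase Car4 (0.29 ± 0.08) were higher. Sgk1, a kinase induced by aldosterone, was lower (-0.18 ± 0.05). With TNBS, Sgk1 was higher in the knockout (0.24 ± 0.04, adjusted p = 0.00124), and the test of the difference passed (-0.42, adjusted p = 0.00312). Of these 7 calls only that of Slc20a1 held in every analysis without 1 array, and with medians of the arrays aligned Scnn1a (adjusted p = 0.0553), Slc26a3 (0.0819) and Car4 (0.0916) did not pass.

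Genes that handle xenobiotics and bile acids had 5 higher and none lower of 28 measured (17.9%), against 2.92% of all genes called higher. The efflux pump Abcb1a read 12.66, 12.52, 12.63, 12.69 and 12.45 in wild type and 13.14, 12.86, 12.92, 13.35 and 13.10 in knockout (0.49 ± 0.10, adjusted p = 0.00662). The glutathione transferase Gsta4 (0.40 ± 0.09), the carboxylesterase Ces2a (0.96 ± 0.23) and the cytochromes Cyp2d26 (0.96 ± 0.23) and Cyp4b1 (1.21 ± 0.33) were higher too, Cyp4b1 with overlap. The calls of Abcb1a and Gsta4 were kept without any single array, and those of Ces2a, Cyp2d26 and Cyp4b1 were lost without 2, 1 and 7 arrays (adjusted p up to 0.0527, 0.0593 and 0.109). Acaa1b, a peroxisomal thiolase, read 7.40, 7.59, 7.74, 7.19 and 6.38 against 10.19, 9.0, 9.07, 10.54 and 9.22 (2.34 ± 0.37, adjusted p = 0.00151), with knockout replicates 1 and 4 highest. Claudin Cldn4 (1.77 ± 0.36, adjusted p = 0.00772) and Cldn12 (0.25 ± 0.05) were the called members of 17 tight junction genes (11.8%, against 4.83% of all genes). Cldn4 was dim and did not pass once values below 5 were raised to 5 (0.48, adjusted p = 0.451).

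The remaining genes of the largest increases were of varied function. Minar1 read 2.52, 2.52, 2.24, 2.59 and 2.55 in wild type and 2.68, 4.18, 4.94, 5.02 and 3.91 in knockout (1.66 ± 0.28), with replicate 1 near the wild type. Nearly all these values were dim, and with values below 5 raised to 5 the difference did not pass (0.0048, adjusted p = 0.558). Minar1 did not exceed 2.52 on any array with TNBS. Armcx4 (1.44 ± 0.31), Vstm5, a membrane protein of neurons (1.19 ± 0.18), the kynurenine aminotransferase Kyat1 (1.02 ± 0.21), Lonrf3 (1.01 ± 0.15) and the cell cycle repressor E2f7 (1.01 ± 0.26) were higher without overlap. The call of E2f7 was lost without any of 5 arrays.

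Of 16 measured skeletal muscle genes, 4 (25%) passed the test as higher in the untreated knockout and 11 were higher without overlap, against 3.39% of all genes higher without overlap. Tnnt3, a troponin of fast fibres, read 3.46, 3.37, 3.22, 6.76 and 5.87 in wild type and 7.89, 7.81, 8.89, 9.29 and 9.92 in knockout (4.22 ± 1.10, adjusted p = 0.0318). Tnni2 (3.81 ± 1.00), Acta1, skeletal actin (3.28 ± 0.79), and the calcium pump Atp2a1 (3.53 ± 0.97) had calls too, and the wild-type replicates 4 and 5 were the highest of their group in all 4. Pgam2 (3.25 ± 0.89), Mybpc2 (2.90 ± 0.64) and Ryr1 (1.89 ± 0.51), outside the list, were further muscle genes of the largest increases. With values below 5 raised to 5, Atp2a1 (2.14), Pgam2 (1.62), Mybpc2 (1.11) and Ryr1 (1.49) did not pass (adjusted p = 0.112, 0.155, 0.0611 and 0.0951). Tnnc2 differed by 4.76 ± 1.43 without passing (adjusted p = 0.0605). None of the 4 list calls held in every analysis without 1 array. With TNBS no member of the list was called, although its median difference was 1.88, and smooth muscle genes had no call among 12 measured in the untreated comparison.

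The skeletal muscle level differed between the groups, so it was added as a covariate after seeing the data. With it, 34 genes were called higher and 64 lower, and 13 members of the type I interferon list were called lower, Oas2 among them (-4.35, adjusted p = 0.00998). With the mean of the small intestine list in its place, 295 genes were called higher and 303 lower, and 20 members of the interferon list were called lower. What part muscle or small intestine had in other differences was not tested.

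Lists of epithelial defence and stress had few calls each, and of all genes 4.83% were called. Of 20 antimicrobial genes, Retnlb, a goblet cell protein against bacteria, was lower (11.39, 11.15, 12.09, 11.85 and 11.71 in wild type and 10.45, 10.69, 10.76, 11.39 and 10.77 in knockout, -0.83 ± 0.18, adjusted p = 0.0117). Ang4, an angiogenin of secretory cells, was lower by 1.21 ± 0.33, a call lost without any of 6 arrays. Of 11 heat shock genes, the cochaperones Dnajb1 (-0.85 ± 0.19) and Dnaja1 (-0.66 ± 0.17) were lower with overlap. All 11 had a negative difference (median -0.47), and the list mean was lowest on knockout replicate 4 (10.47) and at 11.71 on replicate 5, inside the wild-type range of 11.58 to 12.07. Of 16 measured components of the TWEAK and NF-kappaB pathway, Tnfrsf12a was lower and Relb, a subunit of the alternative pathway, higher (0.25 ± 0.06, adjusted p = 0.0315). The call of Relb was lost without any of 6 arrays (adjusted p up to 0.0923), and with medians of the arrays aligned (adjusted p = 0.113). Of 24 collagen and matrix genes, all 24 had a negative difference and Col1a1 alone had a call (-0.52 ± 0.12), which was lost without knockout replicate 4 (adjusted p = 0.0527). The neutrophil, eosinophil, mast cell, enteric neuron, glia, adipocyte, cholesterol synthesis and clock lists had no call. All 11 neutrophil and all 7 eosinophil genes averaged below 5 on the untreated arrays, as did 10 of 12 mast cell and 5 of 7 glia genes. A difference in these could be missed.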

How the data were processed

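Colon RNA of each sample was read on its own Affymetrix array. The values deposited by the authors are log2 expression of 45101 probe sets. RMA and GCRMA, methods of background correction and normalization between arrays, are named in the submitters' processing notes; the sources used here do not say which was applied. The size of differences of genes near the lowest value, 2.17, is uncertain and may be understated, which was not tested. The number of arrays limits the precision.

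Groups came from the sample labels. Gene names of probe sets came from the 2016 annotation of the platform: 34958 named 1 gene, 932 several and 9211 none, and only the 34958 were used. Current symbols and distances came from GRCm38.p6 (34754 probe sets matched), promoters from RefSeq of that assembly. All 23 arrays entered a limma model of group means (lmFit, eBayes; 19 residual and 0.475 prior degrees of freedom). The genotype contrasts without and with TNBS, and their difference, were tested with Benjamini-Hochberg adjustment over 18194 genes at 0.05, and at that threshold a gene is named called. The procedure was tested on simulated data.

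The 50 gene lists (23 pathways, 27 cell types), the comparison and the genes were chosen with earlier results of these data known, so list counts are descriptions. A list mean is the plain mean of its measured members' log2 values. Genes named were Tnfrsf12a, the 20 largest positive and 20 largest negative differences among called genes without overlap (immunoglobulin, T cell receptor and clone names passed over), up to 15 called genes with the smallest p within 20 Mb of Tnfrsf12a, up to 4 of each list described (smallest p) and 10 of the difference of genotype effects; the text prints a selection, and other genes named were chosen after their values were seen. Exact permutation tests of quality measures were two-sided.

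Alternatives were limma's trend and robust options, array weights, the 2 groups alone, a filter on dim genes (log2 5 on at least 5 arrays), the mean of or every probe set, median centring, quantile normalization, a minimum fold change of 1.2, values below 5 raised to 5, a replicate block and analyses without each array. Covariates for the skeletal muscle and small intestine lists, and leaving out genes at the lowest value on all arrays, were chosen after seeing the data. R 4.3.3, limma 3.58.1, data.table (version 1.17.8), Python 3.11.15, pandas 2.3.3 and matplotlib 3.10.9 were used.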

Additional observations from a re-analysis of the deposited data

Results flagged for a closer look

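In each untreated group of 5 arrays, 115 genes and 4 quality measures were examined, which makes 238 groups of values. In 16 of them the gap between an extreme array and its nearest neighbour exceeded Dixon's critical value of 0.71 of the range. Chance gives such a gap in about 1 in 20 groups. In the knockout, replicate 1 stood alone for H2-Q2 (2.47, against a group median of 7.39) and Stk38 (11.42). Replicate 4 stood alone for Ifit3 (6.88) and Haghl (6.89), and replicate 5 for H2-T24 (7.77), Glo1 (13.37), Apoa1 (3.20, median 8.87) and Apoa4 (3.15, median 8.46). In the wild type, replicate 4 stood alone for Mybpc2 (4.04) and Sfi1 (8.27), and replicate 5 for G530011O06Rik (3.48) and Xist (12.24). Replicate 3 did so for Minar1 (2.24) and Tor1aip1 (10.77), replicate 2 for Ccl2 (4.17) and replicate 1 for Ch25h (4.21).

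In 35 of the genes described, the genotype difference without TNBS differed from that with TNBS by limma's test of the difference itself (adjusted p under 0.05). Values are the untreated minus the TNBS genotype difference. Interferon-stimulated genes had negative values: Oas2 -4.06, Usp18 -3.35, Ifi44l -3.21, Oas3 -3.00, Ifit3 -2.97, Oasl2 -2.92, Herc6 -2.52 and Ddx60 -2.51. Rsad2 followed with -2.29, Ifit1 -2.26, Trim30a -2.17, Rtp4 -2.11, Dhx58 -2.04, Bst2 -1.95, Phf11d -1.66, Irf7 -1.54 and Irf9 -1.11. H2-T24 had -1.21 and the cochaperone Dnajb1 -0.99.

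Genes of the X chromosome had positive values, with S100g at 3.83, Ctps2 at 3.28, G530011O06Rik at 2.55 and Acot9 at 0.72. Cldn4 had 2.05, Minar1 1.53, Ch25h 1.44, E2f7 1.43, Haghl 1.28 and Tcf19 0.86. Ch25h, which makes 25-hydroxycholesterol, was lower in the knockout by 0.56 ± 0.16 without TNBS, a call lost without any of 9 arrays and with values below 5 raised to 5, and by 2.00 ± 0.14 with TNBS. Small differences of opposite sign without and with TNBS were measured for Ddx52 (0.62), Cdc16 (0.41), Washc5 (0.40), Ddb2 (0.40) and Sgk1 (-0.42). Tor1aip1 had -0.31 and was lower in the knockout in both.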

How the results depend on the processing

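Tnfrsf12a was lower under every alternative run (-2.73 to -2.41 without single arrays, and -1.65 with values below 5 raised to 5), and 20 to 21 members of the type I interferon list were called lower with any 1 array left out. The counts of genes moved more. They were 531 higher and 348 lower as reported, 171 and 117 with the 2 untreated groups alone (11 of the interferon list), 10 and 50 with a minimum fold change of 1.2, and 34 and 64 with the skeletal muscle covariate (13 of the list). They rose to 757 and 420 with array weights and to 696 and 455 with the filter on dim genes. Higher genes were 320 (449 lower) with arrays centred on their medians and 295 with the small intestine covariate. Without single arrays, 238 to 555 were higher and 216 to 368 lower, 238 and 220 without wild-type replicate 1, 268 and 216 without knockout replicate 4, and 350 higher without knockout replicate 2. The 169 genes called in both genotype comparisons became 273 with array weights, 278 with the filter on dim genes, 9 with the minimum fold change, 38 with the muscle covariate and 99 to 194 without single arrays (99, 109 and 110 without wild-type replicates 1, 4 and 5, 112 and 108 without knockout replicates 3 and 4). The 158 genes whose genotype effects differed became 5 with the minimum fold change, 36 with the muscle covariate, and 80 to 173 without single arrays (86 and 99 without wild-type replicates 1 and 4, 95 and 80 without knockout replicates 2 and 4). Except for the fewer arrays or stricter thresholds of some settings, the cause was not tested.

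The correlations of same-numbered deviations between the genotypes were -0.02, 0.28, 0.001, 0.17 and 0.04. Differently numbered samples were not correlated for comparison, so whether the replicate numbers pair the samples was not settled. With the replicate block, 452 genes were called higher and 286 lower, 20 of the interferon list were called lower, and 76 genes differed in their genotype effects. Direction reversed for H2-K1 (0.042) with the mean of its probe sets, and for Tnnc2 (-0.067) and Xist (0.015), neither called, with the muscle covariate. The difference in the share of values at the lowest level ranged from 0.814 to 1.02 percentage points without single arrays. It did not pass with any 1 knockout array left out (exact permutation test, adjusted p = 0.0635). The groups still did not overlap then, and fewer arrays limit how small an exact p can be. The difference in array medians ranged from 0.0278 to 0.0439 and passed without wild-type replicate 1 (adjusted p = 0.0476). With values below 5 raised to 5, 18 of 114 genes other than Tnfrsf12a lost their call. Among the 114, Isg20, Oas1a, Mx2, Tnnc2, Xist, Apoa1 and Apoa4 had no call to lose. Over the 114 genes, 516 of 2847 values under alternatives lost their call and 8 gained it. With 5 arrays a group and 40.3% of calls kept whichever 1 array was left out, calls of small differences held least often.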

Other observations

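Among 13 measured genes of crypt stem and transit cells, Rnf43, a ubiquitin ligase that limits Wnt signalling, and Lrig1, a stem cell marker, were higher in the untreated knockout (0.47 ± 0.12 and 0.32 ± 0.09, adjusted p = 0.0263 and 0.0484; limma). Of all genes, 4.83% were called in that comparison. The call of Rnf43 was lost without wild-type replicate 1 or knockout replicate 4 (adjusted p up to 0.0737), and that of Lrig1 without any of 8 arrays (up to 0.124). With TNBS they differed by -0.08 and -0.07 and did not pass. Of 20 endoplasmic reticulum chaperones, Pdia4 (-0.79 ± 0.22) and Dnajb9 (-0.29 ± 0.08) were lower, calls lost without any of 8 and 7 arrays (adjusted p up to 0.125 and 0.0934), and 18 of the 20 had a negative difference. Of 15 proximal small intestine genes all had a positive difference and Rbp2, which binds retinol, had a call (0.96 ± 0.24), which did not pass with the mean of that list as a covariate (0.61, adjusted p = 0.125) or without any of 4 arrays.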
